A study of Homo sapiens with 6 samples.

Results

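The 58 genes described here lie on chromosome 12q24, with starts between 112013348 and 124776856 on GRCh38, in the outer portion of the long arm. They were picked from these same libraries because the stretch was lower in Delta-TRRAP, so the direction and size of their difference are given as a description, with no test. All 58 passed the minimum level, out of 19114 genes tested and 34998 genes with at least 1 count. All 58 are protein coding, 28 on the plus and 30 on the minus strand. Their levels differed in Delta-TRRAP by amounts that ranged from 31.1% of the WT level (TRIAP1) to 122% (ARL6IP4), with a median of 57.2%. The question put to the data was how uniform that shift was and which genes of the stretch escaped it.

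The cells were K562, an established human leukaemia line with erythroid features. All 6 libraries came from cells with a homozygous degradation tag (FKBP12-F36V) on endogenous EP400, the ATPase scaffold of the TIP60 complex. The tagged protein was removed with 500 nM dTAGV-1 for 24 h in every library, so no untreated control is part of the comparison. A transgene at AAVS1 supplied either wild-type EP400 (WT, 3 libraries) or EP400 without the SANT domain and the adjoining domain that hold TRRAP (Delta-TRRAP, 3 libraries), and poly(A) RNA was sequenced with strand. Each complemented line was 1 clone, so the form of EP400 and the clone cannot be told apart, and the replicates measure the spread within a line only. In bulk RNA, fewer cells of a type and less RNA per cell cannot be told apart either.

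TIP60 acetylates histones and exchanges H2A for the variant H2A.Z at promoters and enhancers, and TRRAP is the large subunit through which activators recruit it. Neighbouring genes of a chromosome band share no common function as a rule. Genes close to each other can share a chromatin domain, replication timing and the physical copies of their chromosome. The listed genes are mostly of the housekeeping kind, with GC-rich promoters, and serve chromatin, RNA processing, translation, protein breakdown, vesicle traffic, mitochondria, signalling and the cytoskeleton.

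Total counts ran from 39966818 to 42616061 across the WT libraries and from 35076835 to 38491513 across the Delta-TRRAP libraries, and mitochondrial genes took 3.18 to 3.71% and 5.07 to 6.24% of them. Genes with a count numbered 25668 to 25998 (WT) and 27928 to 28033 (Delta-TRRAP), and the part of these library differences in the results below was not tested. All 9 markers of K562 and erythroid cells were detected. The summed level of that list lay between 225668 and 227240 in WT and between 122048 and 128283 in Delta-TRRAP, of which the transferrin receptor TFRC made up a mean of 193716 and 89385. The 6 lymphoid markers summed to 493 to 503 and 419 to 460, with MS4A1 at 0 in every library. The 7 fibroblast markers summed to between 35.9 and 57.5 in WT and between 908 and 953 in Delta-TRRAP. COL1A2 made up most of that difference, with a mean of 1.63 against 868. COL3A1 (0.684 against 9.28) and PDGFRB (1.67 against 9.25) were also higher in every Delta-TRRAP library than in any WT library, at low levels. COL1A1 had 28.9 and 29.8, DCN 11.7 and 8.86, THY1 0 and 0.318, and LUM was at 0 in all 6 libraries. The part of these markers in the 12q24 values was not tested. EP400, which lies beyond the listed genes on the same arm, had 4951, 4924 and 5425 normalised counts in WT and 5515, 6694 and 4350 in Delta-TRRAP. These counts overlap between the groups and do not separate endogenous from transgene RNA.

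To show what kind of start sites the stretch holds, the windows from 250 bases before to 50 after the start are printed for 4 of the 13 lowest genes (ERP29, TRIAP1, GTF2H3, VPS37B) and for 2 near the top of the order (ATP6V0A2, RNF10). They come from RefSeq on GRCh38.p14, read 5′ to 3′ on the strand of the gene, and capitals mark 6 motifs searched on both strands, namely the E-box CACGTG, the box CCAAT, the core promoter element TATAAA, the ETS core CCGGAA, the GC box GGGCGG and the YY1 core ATGGCGG. A capital stretch only marks those letters and is not evidence of binding.
ERP29: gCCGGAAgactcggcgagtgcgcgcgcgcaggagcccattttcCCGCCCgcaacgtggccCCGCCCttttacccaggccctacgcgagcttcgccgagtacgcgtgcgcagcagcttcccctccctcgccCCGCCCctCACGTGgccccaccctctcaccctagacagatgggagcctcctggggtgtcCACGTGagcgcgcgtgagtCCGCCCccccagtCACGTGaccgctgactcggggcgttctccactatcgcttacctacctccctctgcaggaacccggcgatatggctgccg
TRIAP1: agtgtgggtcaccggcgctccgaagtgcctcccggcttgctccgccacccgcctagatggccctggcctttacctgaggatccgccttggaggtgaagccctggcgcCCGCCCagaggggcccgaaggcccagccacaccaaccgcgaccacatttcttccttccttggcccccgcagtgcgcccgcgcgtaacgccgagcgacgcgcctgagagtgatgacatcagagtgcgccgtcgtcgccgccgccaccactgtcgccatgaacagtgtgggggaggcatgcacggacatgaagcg
GTF2H3: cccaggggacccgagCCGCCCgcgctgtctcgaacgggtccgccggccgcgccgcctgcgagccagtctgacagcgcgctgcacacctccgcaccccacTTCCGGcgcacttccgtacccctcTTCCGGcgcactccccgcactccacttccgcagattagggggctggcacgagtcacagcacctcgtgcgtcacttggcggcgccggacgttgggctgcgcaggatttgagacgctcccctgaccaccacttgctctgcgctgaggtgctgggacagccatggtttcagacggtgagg
VPS37B: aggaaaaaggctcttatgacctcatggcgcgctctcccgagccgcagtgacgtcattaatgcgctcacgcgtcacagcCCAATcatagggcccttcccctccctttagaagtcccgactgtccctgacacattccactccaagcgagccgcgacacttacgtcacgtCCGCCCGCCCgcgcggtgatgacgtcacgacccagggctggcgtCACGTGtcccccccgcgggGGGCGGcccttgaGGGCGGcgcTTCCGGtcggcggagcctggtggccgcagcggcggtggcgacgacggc
ATP6V0A2: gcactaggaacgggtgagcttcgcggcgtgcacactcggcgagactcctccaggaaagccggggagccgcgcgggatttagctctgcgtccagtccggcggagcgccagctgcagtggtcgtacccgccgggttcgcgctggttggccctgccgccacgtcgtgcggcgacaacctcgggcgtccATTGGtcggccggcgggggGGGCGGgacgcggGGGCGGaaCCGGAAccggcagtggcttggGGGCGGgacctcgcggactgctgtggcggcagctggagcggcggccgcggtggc
RNF10: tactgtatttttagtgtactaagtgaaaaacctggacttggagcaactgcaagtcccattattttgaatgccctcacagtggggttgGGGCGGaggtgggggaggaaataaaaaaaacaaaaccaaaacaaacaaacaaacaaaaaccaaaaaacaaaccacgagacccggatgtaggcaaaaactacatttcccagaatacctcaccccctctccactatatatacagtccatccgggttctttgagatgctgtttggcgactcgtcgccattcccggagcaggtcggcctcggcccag
The windows stand at chr12:112013176-112013475 (plus strand) for ERP29, chr12:120446335-120446634 (minus strand) for TRIAP1, chr12:123633579-123633878 (plus strand) for GTF2H3, chr12:122896075-122896374 (minus strand) for VPS37B, chr12:123712103-123712402 (plus strand) for ATP6V0A2 and chr12:120534106-120534405 (plus strand) for RNF10. ERP29 holds 3 E-boxes and 4 GC boxes, whereas the RNF10 window holds 1 GC box and is poor in GC at 46.7%. The window of TRIAP1, the lowest of the listed genes, likewise holds 1 GC box and none of the other motifs, at 68% GC. ATP6V0A2, which did not follow the shift, has a GC content of 74.3%, above that of each of the other 5 windows printed.

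The shift covered most of the stretch. Of the 58 genes, 55 had a log2 fold change (Delta-TRRAP over WT) below the median of all tested genes, which was 0.0057. The median log2 fold change of the 58 genes was -0.81, with quartiles at -0.96 and -0.43. Their summed normalised counts were 246138 in WT and 138961 in Delta-TRRAP, which is 56.5%. The rule that picked the genes used this contrast, so the counts that follow are read as a description. A total of 13 genes passed both an adjusted p of 0.01 (edgeR quasi-likelihood test, Benjamini-Hochberg) and a 2-fold change downward, beside 6.34% of all tested genes. At a 1.5-fold change 37 passed downward, beside 14.2% of all tested genes. The 13 genes called at the 2-fold change were among the 55 listed genes with a mean normalised count of at least 100, a level at which 6.22% of all genes were called lower. At that level 47 of the 55 genes passed the adjusted p downward at any fold, beside 42.1% of all such genes. Every Delta-TRRAP library lay below every WT library for 49 of the 55, beside 47.6% of all such genes.

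Each of the 3 Delta-TRRAP libraries showed the shift to a like extent. Against the mean log2 level in WT, the median of the 58 genes stood at -0.80, -0.77 and -0.76 in Delta-TRRAP replicates 1, 2 and 3. In the WT libraries it stood at -0.030, 0.0020 and 0.022. The median of all genes with a mean of at least 100 normalised counts moved by only -0.11 in each Delta-TRRAP library. The listed genes took between 0.587 and 0.608% of all counts in WT and between 0.366 and 0.386% in Delta-TRRAP. Between 54 and 55 of the 58 genes were below their WT mean in each Delta-TRRAP library.

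**Figure D1:**
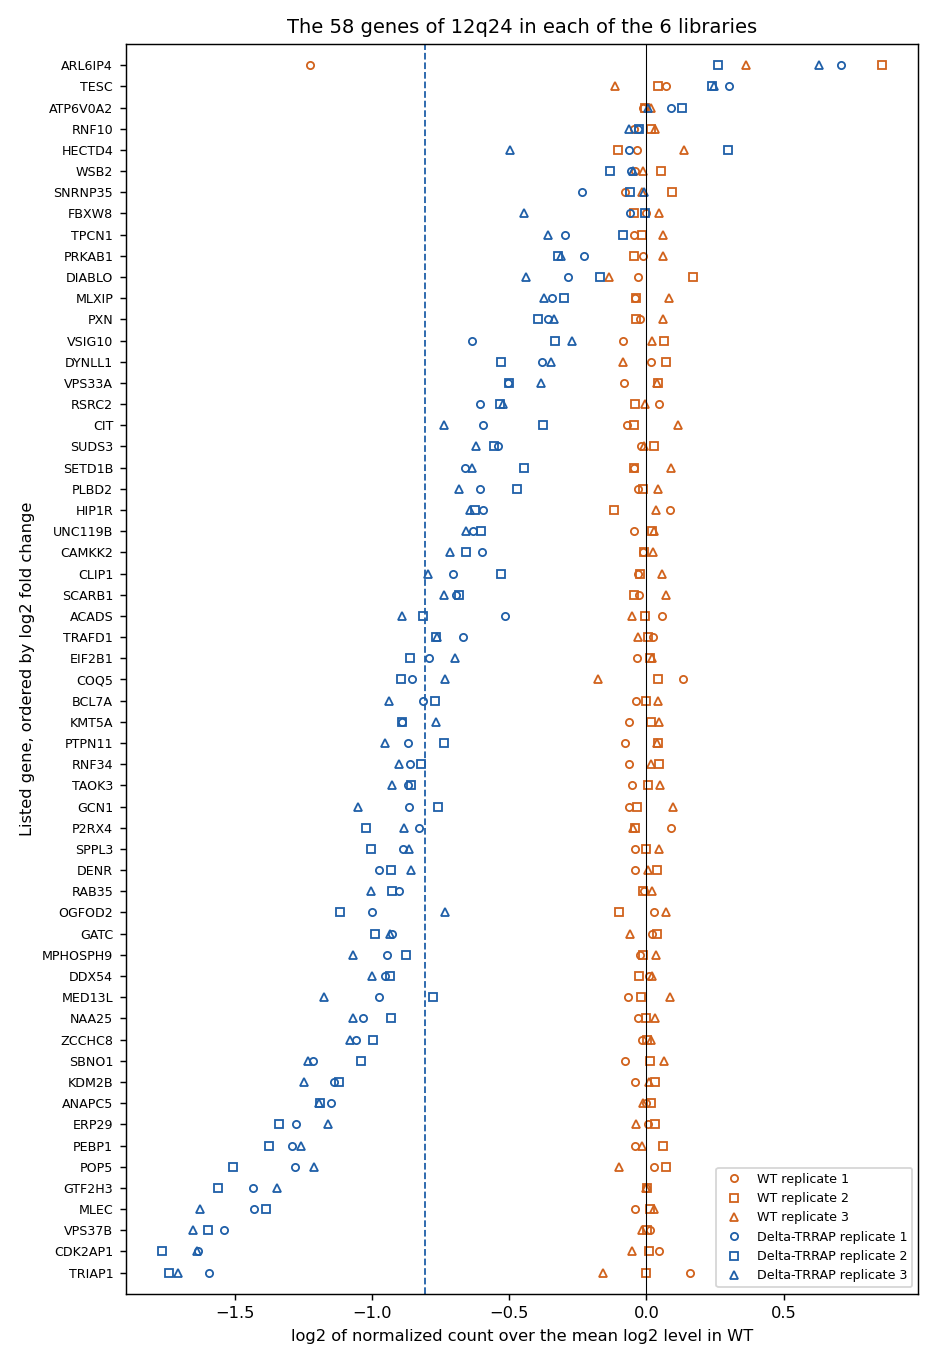
Each row is one of the 58 genes, ordered by log2 fold change, and the x axis is the log2 of its normalised count in a library over its mean log2 level in WT. Orange symbols are the 3 WT libraries, blue symbols the 3 Delta-TRRAP libraries and the dashed line the median of the 58 fold changes (-0.81), and the blue symbols lie apart from the orange ones for most rows below the top 8 genes.

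The shift was not the same for every gene. The fold changes spread over an interquartile range of 0.53 log2 units and a standard deviation of 0.46, while the median standard error of a single gene was 0.056. The 95% interval of a gene's own fold change, taken from its standard error, held the median of the 58 for 13 genes, lay wholly below it for 19 and wholly above it for 26. The spread among the listed genes was nonetheless narrower than that among all 11462 genes of at least 100 normalised counts, whose interquartile range was 0.70. The list was picked from this contrast, so its spread is not independent of that choice. At that level the range was 0.455 for listed genes, 0.59 for unlisted genes of the stretch and 0.77 for the rest of chromosome 12. It was 0.49 between 45 and 49 Mb of chromosome 12 and 0.56 between 32 and 64 Mb of chromosome 20. Of those 11462 genes, 89.9% lay above the median of the listed genes.

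The 6 lowest genes serve unrelated processes. TRIAP1, a small protein that moves lipids inside mitochondria, had 5442, 4858 and 4369 normalised counts in WT and 1615, 1460 and 1493 in Delta-TRRAP, a log2 fold change of -1.68 ± 0.07 (SE, n = 3 per group). CDK2AP1, an inhibitor of the kinase CDK2 that also sits in the NuRD complex, had 3729, 3634 and 3479 in WT and 1165, 1063 and 1163 in Delta-TRRAP (log2 fold change -1.68 ± 0.06). In both genes even the lowest WT library stood far above the highest Delta-TRRAP library. VPS37B, a subunit of the ESCRT-I complex of endosomal sorting, had 2589, 2567 and 2535 in WT and 883, 848 and 816 in Delta-TRRAP (-1.59 ± 0.05). Of its exon length, 29.4% is shared with another gene on its strand. MLEC, a lectin of the endoplasmic reticulum, was at the highest WT level of the 58 genes, with 15066, 15656 and 15807 in WT and 5758, 5939 and 5018 in Delta-TRRAP (-1.48 ± 0.06). The groups were far apart for these as well, at 33.1 and 35.9% of the WT level. GTF2H3, a subunit of the general transcription factor TFIIH, had 4697, 4710 and 4702 in WT and 1741, 1595 and 1850 in Delta-TRRAP (-1.44 ± 0.06). POP5, a protein of RNase P and RNase MRP, had 1389, 1434 and 1273 in WT and 562.1, 480 and 589 in Delta-TRRAP (-1.33 ± 0.08). None of the 6 had overlapping groups. Every Delta-TRRAP library lay below every WT library for 47.6% of all genes of at least 100 normalised counts.

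At the other end, 3 genes lay at or above the median of all tested genes. TESC, a calcium-binding regulator of the sodium-proton exchanger, was the one listed gene with every Delta-TRRAP library above every WT library, at 663, 650 and 583 in WT and 777, 744 and 749 in Delta-TRRAP (log2 fold change 0.26 ± 0.07). ATP6V0A2, the a2 subunit of the proton pump of vesicles, had 3481, 3496 and 3548 in WT and 3730, 3837 and 3523 in Delta-TRRAP (0.08 ± 0.05), and the third of these Delta-TRRAP values lay within the WT range. ARL6IP4, linked to splicing, was barely counted, with 2.05, 8.68 and 6.16 in WT and 7.82, 5.73 and 7.39 in Delta-TRRAP (0.29 ± 0.48, 38 raw counts in all). Of its merged exon length, 85.5% is shared with another gene on the same strand, where the counting mode drops reads, so its place among the 3 rests on few counts.

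The other 3 of the 6 highest genes kept most of their WT level. RNF10, a ubiquitin ligase that marks ribosomal proteins, had 7040, 7348 and 7418 in WT and 7118, 7133 and 6960 in Delta-TRRAP (-0.04 ± 0.05), with overlapping groups at a high level. HECTD4, a large ubiquitin ligase of the HECT class, had 2148, 2051 and 2423 in WT and 2108, 2707 and 1562 in Delta-TRRAP (-0.05 ± 0.13). Its Delta-TRRAP libraries spread more widely than any difference between the groups, and its value depended on single libraries. It was 0.13 without Delta-TRRAP replicate 3, 0.0062 without WT replicate 3 and -0.26 without Delta-TRRAP replicate 2. WSB2, a substrate receptor of a cullin ubiquitin ligase, had 3725, 3974 and 3798 in WT and 3685, 3496 and 3701 in Delta-TRRAP (-0.08 ± 0.05), so its groups did not overlap but stood at 94.6% of WT. These 3 and SNRNP35, a protein of the minor spliceosome (-0.10 ± 0.07), also lay at or above the median of the genes with at least 100 normalised counts, which was -0.11. By that line 7 of the 58 genes escaped and 51 did not, although HECTD4 lay below it without Delta-TRRAP replicate 2. WSB2 came to about that line without WT replicate 1 (-0.114), and SNRNP35 lay within its standard error of it. The count of 7 is therefore approximate.

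The listed genes that escaped were set beside the spread of all genes, with no test. The line at -0.11 lies 0.69 log2 units above the median of the listed genes, and the 7 genes at or above it are 12.1% of the list. Among all genes of at least 100 normalised counts, 13.1% lay that far above their own median. In the other direction, 3 of the 58 genes (5.17%) lay that far below the median of the list, beside 10.1% of all genes of that level. Both shares of the list are over all 58 genes, of which ARL6IP4, DIABLO and OGFOD2 lie below that level. ARL6IP4 is among the 7, so the shares are not at a like level.

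**Figure D2:**
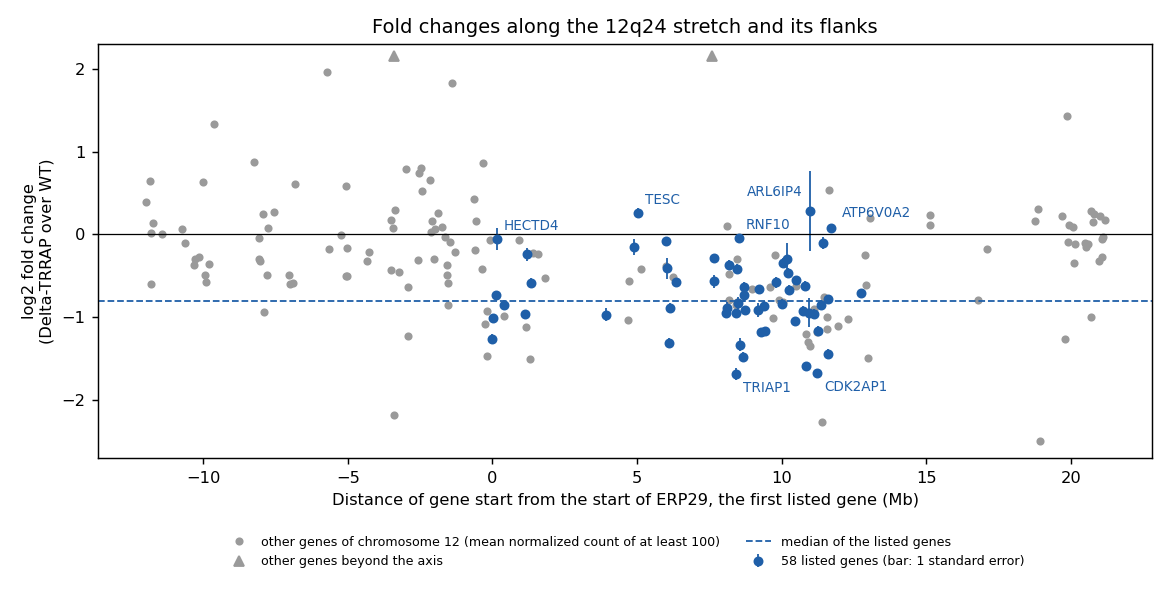
The x axis is the distance of each gene's start from that of ERP29, the first listed gene, in Mb, and the y axis the log2 fold change. Blue points are the 58 listed genes with 1 standard error, grey points other genes of chromosome 12 with at least 100 normalised counts, triangles those beyond the axis, and the dashed line marks -0.81, around which genes of differing fold change lie next to each other in several intervals, for example from -1.68 to -0.04 between 8 and 9 Mb.

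Among 9 genes for chromatin and transcription the median log2 fold change was -0.85. Each had every Delta-TRRAP library below every WT library, beside 47.6% of all genes of at least 100 normalised counts. The 3 called lower were GTF2H3, KDM2B (-1.17 ± 0.05), a histone demethylase that binds unmethylated CpG, and SBNO1 (-1.16 ± 0.06), a nuclear protein of the helicase superfamily. Of all genes of at least 100 normalised counts, 6.22% were called lower. SBNO1 had the highest WT level of the group, at 12446, 13286 and 13760 normalised counts in WT and 5667, 6392 and 5597 in Delta-TRRAP, with a wide gap between the groups. MED13L of the Mediator kinase module had -0.97 ± 0.08, KMT5A, the monomethylase of histone H4, -0.85 ± 0.05, and BCL7A of the SWI/SNF complexes -0.84 ± 0.06. SETD1B, a methylase of histone H3, had -0.58 ± 0.07 and SUDS3 of the Sin3 deacetylase complex -0.57 ± 0.05. MLXIP, a glucose-responsive transcription factor, was the least lowered at -0.34 ± 0.05.

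The 6 genes for RNA processing spanned nearly the whole range, from POP5 to ARL6IP4, with a median of -0.76. ZCCHC8, the scaffold of the nuclear exosome targeting complex, had -1.04 ± 0.05 and the helicase DDX54 -0.96 ± 0.05. RSRC2, the highest of the group in WT, had 4699, 4419 and 4529 normalised counts in WT and 2986, 3142 and 3163 in Delta-TRRAP (-0.55 ± 0.05). Its groups did not overlap, at 68.1% of the WT level.

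The 6 genes for translation and protein modification lay closest together, from -1.01 to -0.78, with a median of -0.93. GCN1, which relays stalled ribosomes to the kinase GCN2, had 12451, 12712 and 13924 in WT and 7138, 7693 and 6282 in Delta-TRRAP (-0.89 ± 0.07). NAA25, a subunit of the N-terminal acetylase NatB, had -1.01 ± 0.05, GATC, of the mitochondrial glutaminyl-tRNA amidotransferase, -0.95 ± 0.05 and DENR, which acts in translation reinitiation, -0.92 ± 0.05. EIF2B1, the alpha subunit of the exchange factor eIF2B, was the highest of the 6 at -0.78 ± 0.05. OGFOD2 had -0.94 ± 0.17 at a mean of 70.4 normalised counts in WT, and 67.6% of its exon length is shared with another gene on its strand. For all 6 the groups were apart in the lower direction, beside 47.6% of all genes of at least 100 normalised counts.

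The 8 genes for ubiquitin and the cell cycle lay further apart, with a median of -0.36. ANAPC5, a subunit of the anaphase-promoting complex, was the highest of these in WT, with 10865, 10985 and 10769 there and 4904, 4773 and 4757 in Delta-TRRAP (-1.18 ± 0.05). CDK2AP1 and ANAPC5 were among the 13 genes called lower, RNF34, a ubiquitin ligase, had -0.86 ± 0.05, and citron kinase CIT, which acts in cytokinesis, -0.56 ± 0.08. The other 4 of the 8 were HECTD4, RNF10, WSB2 and FBXW8, an F-box protein of a cullin ligase, at -0.15 ± 0.09. Thus 3 of the 7 genes at or above -0.11 were ubiquitin ligases or their receptors, a count for which no test was made. Of these, HECTD4 and WSB2 came to about that line or below it with 1 library left out.

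In the endoplasmic reticulum group, MLEC was followed by the chaperone ERP29 at -1.26 ± 0.05 and the intramembrane protease SPPL3 at -0.92 ± 0.06. The 10 genes of endosome, lysosome and plasma membrane had a median of -0.60 and reached from VPS37B to ATP6V0A2. RAB35, a GTPase of endocytic recycling and the highest of these in WT, had 3688, 3672 and 3764 there and 1984, 1950 and 1851 in Delta-TRRAP (-0.94 ± 0.05). The ATP-gated channel P2RX4 had -0.91 ± 0.08, the HDL receptor SCARB1 -0.70 ± 0.05 and HIP1R, an adaptor between clathrin and actin, -0.62 ± 0.06. Smaller differences stood at PLBD2, a lysosomal protein (-0.58 ± 0.06), VPS33A of the HOPS tether (-0.46 ± 0.06), the immunoglobulin-domain protein VSIG10 (-0.41 ± 0.13) and the endolysosomal channel TPCN1 (-0.24 ± 0.07). For VPS33A, 21.6% of the exon length is shared with another gene on its strand. Of the 10 genes, 9 had groups that did not overlap in the lower direction, ATP6V0A2 being the exception. The share over all genes of at least 100 normalised counts was 47.6%.

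Among the 5 mitochondrial and energy genes the median was -0.73. COQ5, a methylase of ubiquinone synthesis, had -0.83 ± 0.07 and ACADS, which oxidises short fatty acids, -0.73 ± 0.09. PRKAB1, a beta subunit of AMPK, had -0.29 ± 0.05, and DIABLO, which releases caspases from their inhibitors, had -0.30 ± 0.19 at a WT mean of 43.1 normalised counts with 31.5% of its exon length shared.

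The 8 signalling genes had a median of -0.69. PTPN11, the phosphatase SHP2, was highest in WT with 14580, 15852 and 15804 normalised counts, against 8439, 9249 and 7966 in Delta-TRRAP (-0.85 ± 0.06). PEBP1, an inhibitor of RAF kinase, had -1.31 ± 0.05, the kinase TAOK3 -0.88 ± 0.05 and TRAFD1, a brake on innate immune signalling, -0.73 ± 0.05. The kinase CAMKK2 had -0.66 ± 0.05, UNC119B, a carrier of lipidated proteins, -0.63 ± 0.05, and paxillin, PXN, -0.36 ± 0.05. TESC alone of the 8 stood above zero. The 3 cytoskeletal genes were the centrosomal MPHOSPH9 (-0.96 ± 0.06), the microtubule plus-end protein CLIP1 (-0.67 ± 0.06) and DYNLL1, a light chain of dynein. DYNLL1 had 9498, 9867 and 8856 in WT and 7224, 6515 and 7386 in Delta-TRRAP (-0.42 ± 0.06), apart but at 74.8% of WT.

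Position within the stretch did not order the fold changes. Over the 58 genes the Spearman correlation of log2 fold change with position was -0.083, given as a description over genes that share the same 6 libraries. Neighbouring listed genes differed by a median of 0.41 log2 units over 57 pairs and by at most 1.52, beside 0.44 for any pair of listed genes. The 13 genes between 8 and 9 Mb from the start of ERP29 reached from -1.68 to -0.04 within that distance, with a median of -0.89. FBXW8 and TESC, between 4 and 6 Mb, were the only listed genes of their interval and both lay near or above zero. The median was -0.68 over plus-strand genes and -0.89 over minus-strand genes.

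The edges of the stretch were not sharp. Just inside, the first gene ERP29 had -1.26 ± 0.05 and the last gene SCARB1 -0.70 ± 0.05. Just outside on the centromeric side, TMEM116 had -0.06 ± 0.07, MAPKAPK5 -0.92 ± 0.05, MAPKAPK5-AS1 -1.47 ± 0.07, ALDH2 -1.08 ± 0.07 and ACAD10 0.86 ± 0.07. On the telomeric side, DHX37 had -0.62 ± 0.06, BRI3BP -1.49 ± 0.05 and AACS 0.20 ± 0.06, and the long noncoding RNA AC079949.5 was 2.37 Mb from SCARB1 and had 0.24 ± 0.12. Lower genes thus continued for some distance past both ends of the list.

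Genes of the same stretch that are not on the list were lowered to a like extent. The 38 of them with at least 100 normalised counts had a median of -0.79 on the log2 scale, and 35 of the 38 lay below the median of all tested genes, beside a median of -0.83 for the 55 listed genes of that level. The lowest were RILPL2 (-2.26 ± 0.07), SLC8B1 (-1.50 ± 0.07) and PITPNM2 (-1.35 ± 0.10). The highest were AC004812.2 (0.10 ± 0.09), TCTN2 (0.54 ± 0.08) and TMEM233, which had 7, 3 and 2 raw counts in WT and 1620, 1643 and 1628 in Delta-TRRAP. With a WT mean of 4.04 normalised counts, TMEM233 reached the level of 100 only through Delta-TRRAP. The 516 genes of that level on the rest of chromosome 12 had a median of -0.11, the same as all genes of that level. The shift was thus not one of the whole chromosome, and 2 other stretches had medians below that of all genes, with -0.84 over 26 genes between 45 and 49 Mb of chromosome 12 and -0.59 over 188 genes between 32 and 64 Mb of chromosome 20. Those stretches were also picked with these results known, and the differences between stretches were not tested.

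**Figure D3:**
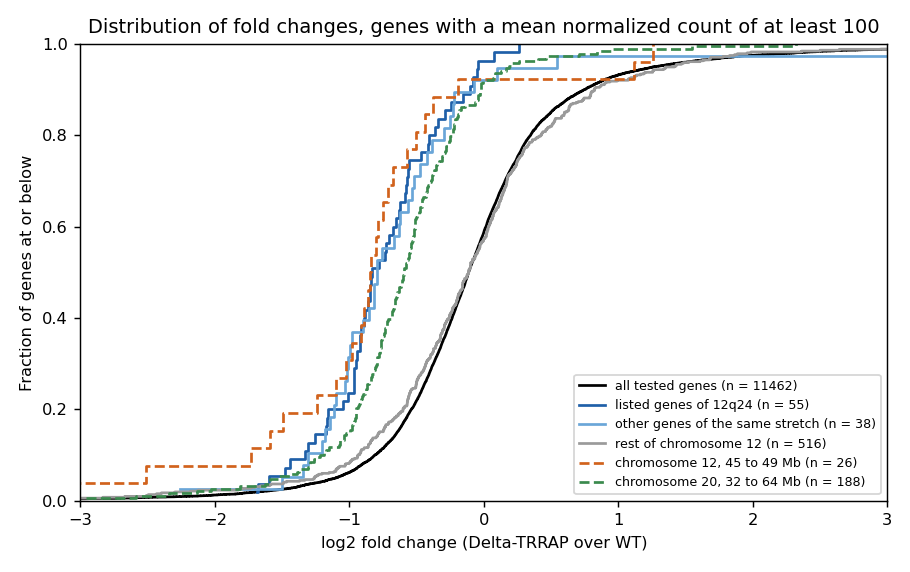
The lines give the fraction of genes at or below each log2 fold change (x axis), for genes with at least 100 normalised counts. The 55 listed genes and the 38 other genes of the stretch follow nearly the same curve, with medians of -0.83 and -0.79, to the left of the curves of all 11462 genes and of the rest of chromosome 12, both with a median of -0.11.

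Genes that start next to each other in opposite directions share one stretch of promoter DNA, and 12 such pairs with starts within 1000 bases held at least 1 listed gene. The members of these pairs differed in log2 fold change by a median of 0.70, from 0.066 to 1.19, and 7 of the 12 differed by more than 0.5. Over 1120 such pairs of the whole table the median difference was 0.42, and 482 of them differed by more than 0.5. The ratio of the pair within each library did not overlap between WT and Delta-TRRAP for 8 of the 12, beside 75.9% of the pairs of the whole table. ERP29 starts 163 bases from TMEM116, and the ratio of ERP29 to TMEM116 counts was 11.1, 11.5 and 10.2 in WT and 4.84, 4.81 and 4.67 in Delta-TRRAP. GATC starts 60 bases from TRIAP1, and the ratio of GATC to TRIAP1 was 0.705, 0.799 and 0.830 in WT and 1.23, 1.30 and 1.33 in Delta-TRRAP. Both of these genes were lower, TRIAP1 by more. GTF2H3 and EIF2B1 overlap by 27 bases at their starts, and the ratio of GTF2H3 to EIF2B1 was 0.950, 0.920 and 0.915 in WT and 0.595, 0.571 and 0.592 in Delta-TRRAP. RNF10, which kept its level, and COQ5, which did not, had ratios of RNF10 to COQ5 of 3.00, 3.35 and 3.92 in WT and 6.02, 6.20 and 5.42 in Delta-TRRAP. PEBP1 and VSIG10, RAB35 and AC004812.2, and PLBD2 and SLC8B1 also differed by more than 0.5, while DDX54 and RITA1, PTPN11 and RPL6, and RSRC2 and KNTC1 differed by 0.15, 0.13 and 0.066.

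**Figure D4:**
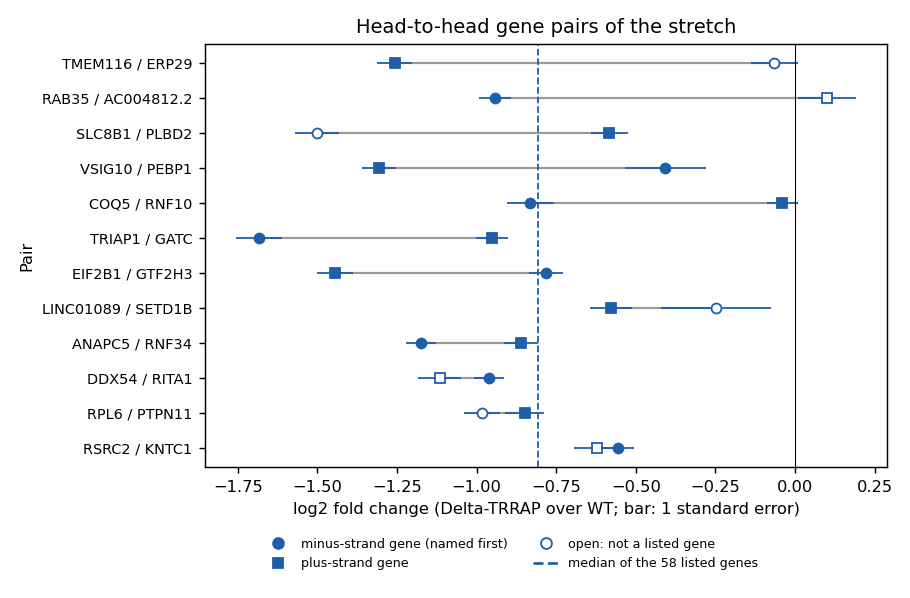
Each row is a head-to-head pair, with the minus-strand gene as a circle and the plus-strand gene as a square on a log2 fold change axis, bars of 1 standard error, and open symbols for genes not on the list. The dashed line marks the median of the 58 genes (-0.81), and the grey lines show the distance within a pair, which runs from 1.19 at the top to 0.066 at the bottom.

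The base composition around the start sites showed little relation to the fold changes. RefSeq windows were found for 48 of the 58 genes, 67 windows in all, with a median GC content of 67.7% beside 64.7% over 12516 windows of expressed genes and 58.7% over all 35116 windows. Over these 48 genes the Spearman correlation of log2 fold change with promoter GC was -0.016 and with the observed over expected CpG ratio 0.083. The GC box GGGCGG occurred in 82.1% of the listed windows, 67.2% of expressed windows and 44.95% of all windows. The ETS core CCGGAA occurred in 40.3, 29.0 and 17.2%, and CCAAT in 38.8, 35.1 and 34.6%. The YY1 core ATGGCGG occurred in 16.4, 10.2 and 5.55%, and the E-box CACGTG in 14.9, 9.67 and 7.26%. TATAAA occurred in 1.49, 5.86 and 11.5%, a single listed window, that of ARL6IP4. E-boxes were present at ERP29, MLEC, VPS37B and SBNO1, all called lower, and also at DDX54, MED13L, PLBD2, SPPL3, FBXW8 and DIABLO, which were not. The share called lower was 22.4% of the 58 listed genes and 6.34% of all tested genes. A link between the motif and the calls was not tested. Several windows can belong to 1 gene, so these shares are over windows and carry no test.

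Level in WT went with the fold change more than length did. Over the 58 genes, the Spearman correlation of log2 fold change with the WT level per kb of exon was -0.46 and with the WT normalised count -0.42, although the WT level enters the fold change itself. With exon length it was 0.11. The WT level per kb ran from 2.02 for ARL6IP4 to 6305 for PEBP1. Split at 6.24 kb of exon, the median log2 fold change was -0.83 for the 29 shorter genes and -0.70 for the 29 longer ones.

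Length did order the difference between replicates. The log2 ratio of Delta-TRRAP replicate 3 to replicate 2 had a Spearman correlation of -0.63 with exon length over the 58 genes, and -0.45 over 11445 genes of at least 100 normalised counts, both within the same pair of libraries. Its median was 0.052 over the shorter and -0.13 over the longer listed genes. HECTD4, with 21.7 kb of exon, was the extreme and had a standard error of 0.13, and MED13L (32.9 kb) and CIT (28.6 kb) lay in the same direction. FBXW8, with 5.21 kb of exon, did not follow the order, since its ratio of -0.44 was the second lowest of the 58. The part of this length trend in the fold changes of single genes was not tested.

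**Figure D5:**
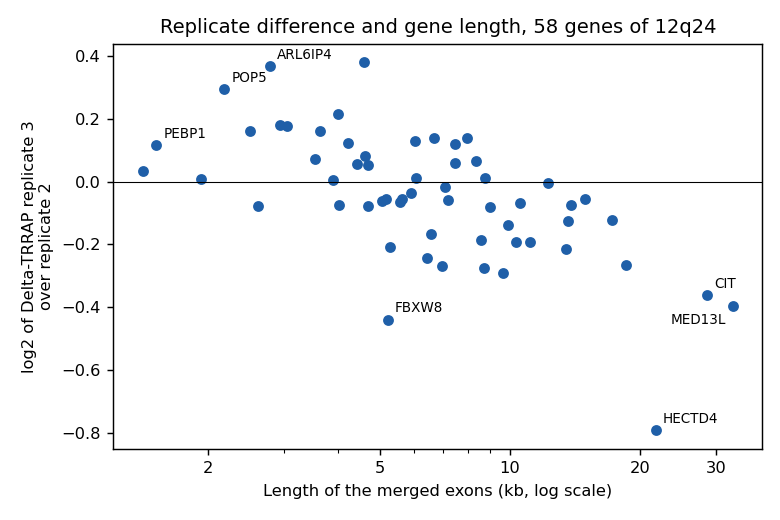
The x axis is the length of each gene's merged exons in kb on a log scale and the y axis the log2 ratio of Delta-TRRAP replicate 3 to replicate 2. Each point is one of the 58 listed genes, and short genes such as POP5 lie above zero while the longest, HECTD4, CIT and MED13L, lie lowest among the long genes and FBXW8 (-0.44, 5.21 kb) lies apart from that order.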

How the data were processed

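The deposited files hold raw counts of reads per gene for 3 WT and 3 Delta-TRRAP libraries, made by the authors with STAR on hg38 (uniquely mapped reads) and HTSeq 2.0.2 (union mode, reverse strand) on GENCODE release 32. Union mode drops reads in exons that genes share on 1 strand. The authors' normalised table, with 3 columns of another condition, and their fold changes and p-values were not used.

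Counts were scaled by TMM to a common library size and fitted with edgeR 4.0.16 (quasi-likelihood F test, R 4.3.3) over 19114 genes with a mean normalised count of at least 5, of 60609 in the files. Genes were called at a Benjamini-Hochberg adjusted p of at most 0.01 and a 2-fold change. The standard error is the log2 fold change over the root of its F statistic. Positions came from GENCODE release 44, which matched 19041 tested genes by ID. The fit was tested on simulated data.

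The listed genes, their roles and all lists were chosen with earlier results of these data known. Values per library are given for the 6 lowest and 6 highest listed genes and the gene of each role with the highest WT count. Of other genes, the 3 lowest and 3 highest of the stretch, 5 on each side and EP400 are named, beside pair partners and markers, and 1 such value is not reported here. Alternatives were other scalings (RLE, upper quartile, library size, TMM without chromosome 12), DESeq2 1.42.0, limma-voom (limma 3.58.1), other minimum counts, each library left out and a replicate block. TMM on tested genes and the limits at 100 counts were added after seeing the data. Libraries with the same number did not deviate together (correlations -0.0095, -0.0294 and -0.0189), so the numbers do not pair them.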

Additional observations from a re-analysis of the deposited data

How the results depend on the processing

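The median log2 fold change of the 58 genes (-0.81) was -0.65 with scaling by library size alone, which also moved the median of all genes to 0.17, so that the listed genes stood -0.82 below it. It was -0.83 with a minimum mean count of 50, -0.78 with TMM on tested genes, -0.83 for listed genes of at least 100 counts and between -0.82 and -0.77 with 1 library left out. The interquartile range was 0.431 at the minimum of 50 and 0.455 for listed genes of at least 100 counts. At a fold change of 1.5, 37 listed genes were called lower in place of 13, and 12 to 15 at the 2-fold change with 1 library left out. At the 2-fold change the count was 11 with scaling by library size and 12 with DESeq2 and with TMM on tested genes. The genes called over the whole table numbered 4307, or 1969 at the minimum of 50 because fewer genes were tested, and 4029 to 4287 with 1 library left out. With the replicate block the median was -0.81, 13 listed genes were called lower, 55 lay below the median of all genes and 4218 genes were called over the whole table.

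Scaling by library size turned WSB2 (0.078), HECTD4 (0.11) and RNF10 (0.12) above zero and took ATP6V0A2 to 0.23 and past the adjusted p. Leaving out 1 library gave ARL6IP4 -0.11 to 0.74 and HECTD4 -0.26 to 0.13, with HECTD4 at 0.0062 without WT replicate 3. TESC was 0.19 without WT replicate 3 and 0.24 without Delta-TRRAP replicate 1, no longer past the adjusted p. The cause was not tested. Among the other values, 182 of single genes kept direction and side of the threshold, and 77 summary values stayed within the spread of the libraries or within 1.5 times the reported count. Depth limits ARL6IP4, DIABLO and OGFOD2, each under a mean of 100 normalised counts.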

Other observations

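The stretch also holds 46 genes that are not on the list and have a mean of 5 to 100 normalised counts. Their median log2 fold change was -0.40, and 32 of the 46 lay below the median of all tested genes. On the rest of chromosome 12 the 367 genes of that level had a median of 0.32, and 150 of them lay below that line. Genes of low level thus stood higher than those of at least 100 normalised counts both within the stretch and outside it, and the distance between the stretch and the rest of the chromosome was in the same direction at both levels. None of these differences was tested.

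TMEM233, the highest of the unlisted genes, had 12 raw counts over the 3 WT libraries and 4891 over the 3 Delta-TRRAP libraries. Of nearby unlisted genes of low level, AC002070.1 had a log2 fold change of 4.47 ± 0.33 and HSPB8 3.82 ± 0.27. AC002070.1 spans TMEM233 on the other strand. Their means were 2.01 and 4.34 normalised counts in WT and 47.1 and 63.1 in Delta-TRRAP. Both passed the minimum mean of 5 only through Delta-TRRAP, so nothing is read from these values. The listed genes next in line, PRKAB1 and CIT, had -0.29 and -0.56.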
